A study of Caenorhabditis elegans with 30 samples.

Results

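The genes nlp-27, nlp-28, nlp-29, nlp-30, nlp-31, nlp-32, nlp-33 and nlp-34 of Caenorhabditis elegans were followed through starvation of first-stage (L1) larvae. They were found by matching the public names to the WBGene identifiers of the count table, which gave 8 genes of the 46911 in the files, and all 8 had enough counts to be among the 15508 genes tested. The double mutant irld-39(duk1); irld-52(duk17), strain LRB444 and called irld here, was compared with the wild-type strain N2. Both strains were bleached, hatched and held without food in S-basal at 20C, and whole larvae were collected at 6, 12, 24, 48 and 72 h of L1 arrest, which were 18, 24, 36, 60 and 84 h after bleach. With 3 biological replicates at each time in each strain, 30 libraries of polyadenylated RNA fell into 10 groups. The double mutant was represented by 1 strain.

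These genes encode short secreted peptides rich in glycine and aromatic residues, and are named neuropeptide-like although the epidermis is their best known site of expression. nlp-29 is the standard reporter of the epidermal response to fungal infection and to wounding in C. elegans. That response runs from the receptor DCAR-1 through G-protein and protein kinase C steps to the p38 kinase PMK-1 and the STAT-like factor STA-2, and osmotic stress and loss of furrow collagens also raise nlp-29. The libraries are of whole larvae, so the tissue in which a transcript was made was not measured.

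Of the 8 genes, 6 form a cluster on chromosome V (WBcel235 assembly, V 3978825 to 3989770, 10946 bp), in which no other gene is annotated. Read from the left end, nlp-34 (3978825 to 3979134) lies on the minus strand, and nlp-31 (3980055 to 3980622), nlp-30 (3981980 to 3982741), nlp-29 (3984425 to 3984847), nlp-28 (3987900 to 3988316) and nlp-27 (3989378 to 3989770) lie on the plus strand. The gaps between these neighbours range from 920 to 3052 bp. nlp-33 lies elsewhere on chromosome V (11147346 to 11147737, plus strand) and nlp-32 on chromosome III (486114 to 486547, minus strand). Each gene is annotated as protein coding with 1 transcript of 2 exons and 1 intron, with 264 to 714 bp of exon. No annotated gene overlaps any of the 8, although the receptor gene str-83 ends 13 bp from nlp-34. Reads that aligned to 2 places were given to 1 of them and those with more were dropped, so similar neighbours may share reads.

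Total counts per library ranged from 7563687 to 19815884, and the 8 genes together held 389 to 16564 counts of a library. Several libraries lay apart from their replicates. On the first principal component, which held 57.6% of the variance and followed time, irld at 6 h replicate 1 lay at -51.1, against -104.6 and -107.2 for the other irld replicates and -99.6, -102.2 and -106.4 for N2 at 6 h. It lay near irld replicates 2 and 3 at 12 h, at -60.8 and -60.9. N2 at 24 h replicate 2 lay at -19.4, against 49.8 and 23.9, irld at 12 h replicate 1 at -20.6, against -60.8 and -60.9, and irld at 48 h replicate 3 at 33.3, against 73.7 and 71.2. Replicate 1 had the highest value in each of the 10 groups. Replicate number was not in the main fit, and results with it are given in the last section. Since every change of irld is read against 6 h, the counts of genes called against 6 h in irld are given with and without its replicate 1. Results on single genes include it unless stated. Without N2 at 24 h replicate 2, N2 had 7 of 8 genes called lower at 24 h, as with it. Without irld at 48 h replicate 3, irld had 8 of 8 at 48 h, also as with it, and without irld at 12 h replicate 1 it had 2 at 12 h, against 3 with it. Levels are given as CPM, the counts scaled to library depth with TMM factors, and a change is called where the adjusted p of edgeR's quasi-likelihood test, over all 15508 genes, is under 0.05.

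All 8 genes fell during arrest in both strains. Together they held 702 ± 255, 307 ± 22.9, 208 ± 21.7, 124 ± 10.3 and 71.6 ± 25 CPM at 6, 12, 24, 48 and 72 h in irld (SD, n = 3 each). The sums in N2 were 671 ± 136, 292 ± 19.3, 219 ± 44.2, 133 ± 9.4 and 87.9 ± 5.12 CPM (SD, n = 3 each). At 72 h against 6 h, 8 of 8 were called lower in irld, where 26% of all tested genes were called lower, and 8 of 8 in N2, where 27.9% were. Scaled on the ERCC spike-in instead, the counts were 8 of 8 in irld and 5 of 8 in N2, where 22.5% and 12.1% of all genes were called in either direction. Spike-in counts differed widely between replicates, from 34603 to 239956 in irld at 6 h and from 40471 to 315963 in N2 at 72 h. Under TMM scaling the median log2 difference of the 8 genes was -3.20 in irld and -3.24 in N2, beside -0.13 and -0.11 for all genes. Every library at 72 h lay below every library at 6 h for 7 of 8 genes in irld, the exception being nlp-32, and for 8 of 8 in N2, which held for 28.9% and 34.5% of all genes. The test of any change with time called 8 of 8 in each strain, with 43.1% of all genes called in irld and 49.6% in N2. Since every comparison with 6 h within a strain uses the same 3 libraries at 6 h, these counts are not independent of each other.

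**Figure D1:**
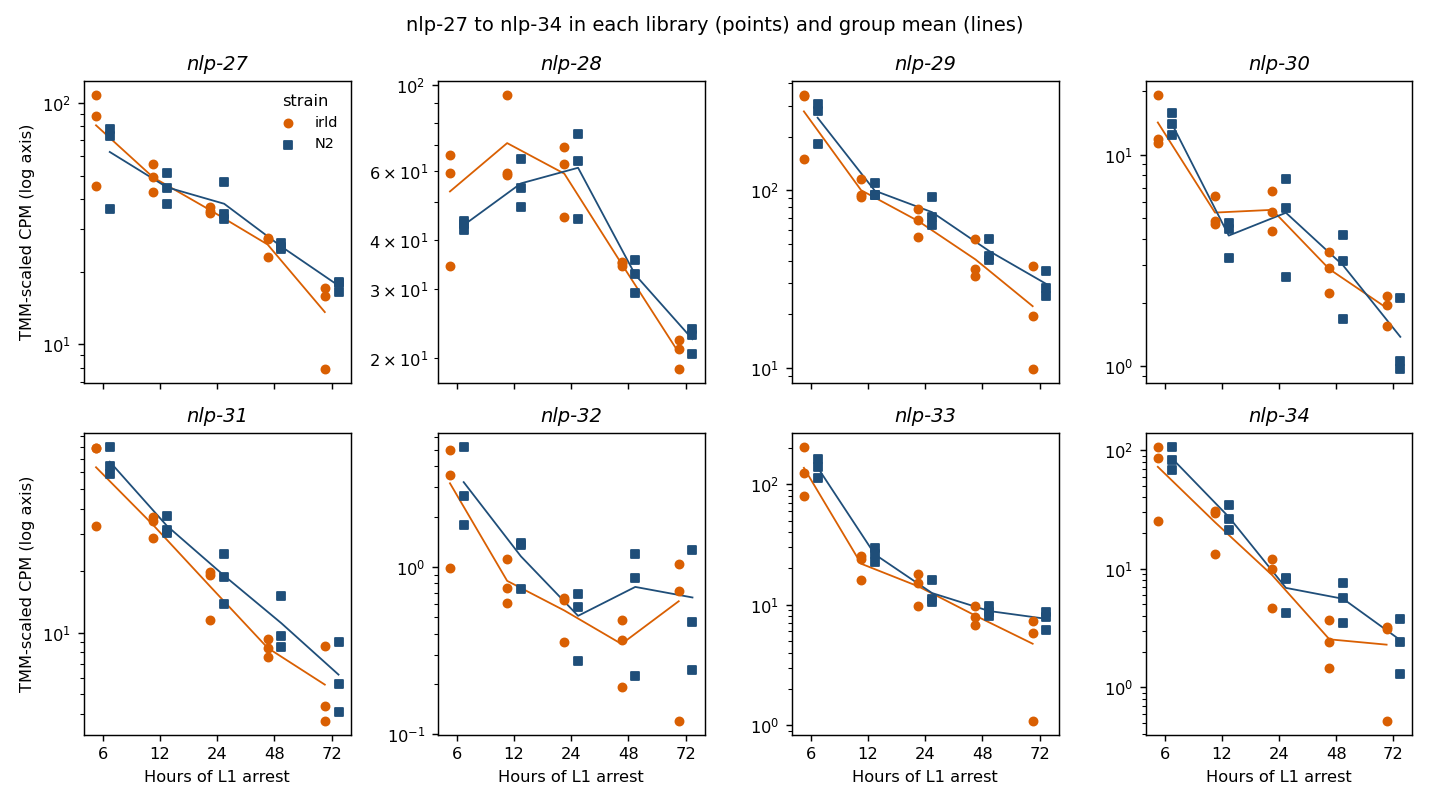
TMM-scaled CPM (log axis, a scale for each panel) of each gene in each of the 30 libraries against hours of L1 arrest; orange circles are irld, blue squares are N2, and lines join the means of 3 libraries. 7 of the panels descend from 6 h, while nlp-28 stands at 70.9 CPM at 12 h in irld and at 61.3 CPM at 24 h in N2 before it descends; irld at 6 h replicate 1 is the lowest irld point at 6 h in 6 of the panels.

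nlp-29, the infection reporter, was the most abundant of the 8 per length of exon at 6 h and held 39.1 ± 2.94% of their summed CPM in irld and 37.9 ± 2.16% in N2 (SD, n = 3 each). In the irld libraries it stood at 150, 339 and 345 CPM at 6 h, at 94.2, 91.3 and 116 CPM at 12 h, at 54.8, 78.7 and 67.6 CPM at 24 h, at 32.7, 36.0 and 53.3 CPM at 48 h, and at 19.6, 9.82 and 37.2 CPM at 72 h. In the N2 libraries it stood at 183, 280 and 305 CPM at 6 h, at 93.5, 110 and 93.9 CPM at 12 h, at 63.8, 70.3 and 91.7 CPM at 24 h, at 40.4, 42.6 and 53.4 CPM at 48 h, and at 25.5, 35.2 and 28 CPM at 72 h. Every later library of a strain lay below every library of that strain at 6 h. The log2 difference at 72 h against 6 h was -3.65 ± 0.36 in irld (SE, adjusted p = 1.92e-08, edgeR) and -3.11 ± 0.35 in N2 (SE, adjusted p = 1.19e-07, edgeR). The fall was already called at 12 h, at -1.47 ± 0.33 in irld (SE, adjusted p = 0.0115, edgeR) and -1.37 ± 0.33 in N2 (SE, adjusted p = 0.0137, edgeR). With only the irld groups at 12 h and 6 h fitted, the irld difference was -1.46 (adjusted p = 0.224, edgeR), and under spike-in scaling the differences were -1.93 in irld and -1.40 in N2 (adjusted p = 0.595 and 1, edgeR).

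nlp-33, which lies outside the cluster, had the largest early fall of the 8. Its irld libraries held 79.4, 125 and 205 CPM at 6 h, 24.1, 16.1 and 25.4 CPM at 12 h, 9.67, 18.0 and 15.1 CPM at 24 h, 6.77, 9.74 and 7.83 CPM at 48 h, and 5.84, 1.08 and 7.29 CPM at 72 h. Its N2 libraries held 113, 162 and 139 CPM at 6 h, 29.7, 26.4 and 22.6 CPM at 12 h, 10.6, 11.1 and 15.9 CPM at 24 h, 8.05, 8.72 and 9.80 CPM at 48 h, and 6.17, 8.75 and 7.98 CPM at 72 h. The 12 h libraries of each strain all lay below its 6 h libraries. The 12 h difference was -2.64 ± 0.37 in irld (SE, adjusted p = 0.00064, edgeR), where it ranked 26 from the lowest of 15508 genes, and -2.39 ± 0.37 in N2 (SE, adjusted p = 0.00049, edgeR), where it ranked 43. By 72 h the difference from 6 h was -4.85 ± 0.42 in irld (SE, adjusted p = 2.75e-09, edgeR) and -4.17 ± 0.41 in N2 (SE, adjusted p = 1.21e-08, edgeR). In irld at 72 h, replicate 2 was the lowest of the 3 libraries for 6 of the 8 genes, nlp-33 among them, and not for nlp-30 and nlp-34. The 8 genes summed to 46.6 CPM in it, against 71.5 and 96.7 CPM in replicates 1 and 3.

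nlp-34, the only gene of the cluster on the minus strand, had the largest fall by 72 h. The irld libraries held 25.3, 85.9 and 106 CPM at 6 h, 13.4, 30.9 and 29.8 CPM at 12 h, 4.65, 12.0 and 9.87 CPM at 24 h, 1.46, 2.41 and 3.73 CPM at 48 h, and 0.519, 3.11 and 3.23 CPM at 72 h. The N2 libraries held 68.2, 83.1 and 107 CPM at 6 h, 26.3, 34.8 and 21.2 CPM at 12 h, 4.23, 8.32 and 8.16 CPM at 24 h, 7.62, 3.46 and 5.66 CPM at 48 h, and 3.79, 2.43 and 1.29 CPM at 72 h. In irld, replicate 1 was the lowest library at every time, and at 6 h it lay below replicates 2 and 3 at 12 h. The log2 difference at 72 h against 6 h was -4.97 ± 0.60 in irld (SE, adjusted p = 4.75e-07, edgeR) and -5.12 ± 0.60 in N2 (SE, adjusted p = 2.63e-07, edgeR). At 12 h the difference was -1.56 ± 0.48 in irld (SE, adjusted p = 0.0684, edgeR), and -1.65 ± 0.48 in N2 (SE, adjusted p = 0.0415, edgeR). Without irld at 6 h replicate 1 the irld difference was -1.97 (adjusted p = 0.0072, edgeR). With it, the irld adjusted p was 0.0314 by DESeq2 and 0.044 by limma-voom. With no filter on low counts the N2 adjusted p was 0.117 (edgeR), and the N2 call was also lost under spike-in scaling.

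nlp-28 did not follow the others early in arrest. Its irld libraries held 65.9, 59.6 and 34.4 CPM at 6 h, 94.3, 58.9 and 59.6 CPM at 12 h, 69.2, 62.6 and 45.8 CPM at 24 h, 35, 35.1 and 34.3 CPM at 48 h, and 21, 18.7 and 22.2 CPM at 72 h. Its N2 libraries held 42.5, 44.1 and 44.7 CPM at 6 h, 64.6, 48.7 and 54.4 CPM at 12 h, 63.9, 45.2 and 74.9 CPM at 24 h, 35.6, 32.7 and 29.3 CPM at 48 h, and 23.7, 20.4 and 22.9 CPM at 72 h. In N2 every library at 12 h and at 24 h lay above every library at 6 h, which held for 14.7% and 20.7% of all genes, while in irld the groups overlapped. The log2 difference at 12 h was 0.41 ± 0.21 in irld (SE, adjusted p = 0.294, edgeR) and 0.35 ± 0.21 in N2 (SE, adjusted p = 0.355, edgeR). By 72 h nlp-28 was called lower, with a difference of -1.37 ± 0.22 in irld (SE, adjusted p = 1.24e-05, edgeR) and -0.97 ± 0.21 in N2 (SE, adjusted p = 0.000521, edgeR), the smallest fall of the 8 in each strain.

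A contrast averaged over both strains, chosen after the values were seen, left the early course of nlp-28 near the threshold. The 12 h level differed from 6 h by 0.38 ± 0.15 (SE, adjusted p = 0.0701, edgeR) and the 24 h level by 0.32 ± 0.15 (SE, adjusted p = 0.0775, edgeR). With upper quartile scaling the adjusted p values were 0.0358 and 0.0255 (edgeR), and with DESeq2 0.0447 and 0.0495. Without irld at 6 h replicate 1 the differences were 0.47 and 0.41, with adjusted p of 0.0269 and 0.0288 (edgeR). Over all left-out libraries and replicates they ranged from 0.25 to 0.54 at 12 h and from 0.23 to 0.47 at 24 h, and passed the threshold in 4 and 8 of 33 settings. Scaling on the ERCC spike-in turned the direction at both times, to -0.18 at 12 h and -1.08 at 24 h. The uneven spike-in counts between replicates limit what this reversal shows. Between 24 h and 48 h nlp-28 fell, with a difference at 48 h of -0.84 ± 0.15 (SE, adjusted p = 0.00137, edgeR).

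The remaining genes of the cluster, nlp-27, nlp-31 and nlp-30, were lower at 12 h than at 6 h on average and lower again at 48 h and 72 h. nlp-27 averaged 80.7 ± 32.2, 49.1 ± 6.46, 35.9 ± 0.917, 25.9 ± 2.50 and 13.6 ± 5.01 CPM from 6 to 72 h in irld and 62.6 ± 22.8, 44.7 ± 6.46, 38.2 ± 7.55, 25.4 ± 0.735 and 17.5 ± 0.86 CPM in N2 (SD, n = 3 each). nlp-31, whose peptide has antifungal activity in the test tube, averaged 63.6 ± 26.5, 33.3 ± 3.95, 16.7 ± 4.57, 8.42 ± 0.832 and 5.58 ± 2.65 CPM in irld and 67.7 ± 10.9, 33 ± 3.40, 18.9 ± 5.15, 11.1 ± 3.55 and 6.24 ± 2.50 CPM in N2. nlp-30 averaged 14.2 ± 4.41, 5.33 ± 0.926, 5.49 ± 1.2, 2.88 ± 0.639 and 1.89 ± 0.306 CPM in irld and 14.1 ± 1.70, 4.15 ± 0.798, 5.32 ± 2.54, 3.00 ± 1.25 and 1.38 ± 0.63 CPM in N2. nlp-30 had means at 24 h close to those at 12 h, with a log2 difference averaged over strains of 0.20 ± 0.24 (SE, adjusted p = 0.583, edgeR). At 72 h against 6 h the difference of nlp-27 was -2.57 ± 0.29 in irld and -1.84 ± 0.28 in N2, that of nlp-31 was -3.51 ± 0.35 and -3.44 ± 0.35, and that of nlp-30 was -2.90 ± 0.36 and -3.36 ± 0.38 (SE). Each of these was called, with adjusted p between 1.94e-08 and 6.32e-06 (edgeR).

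nlp-32, on chromosome III, was the least abundant and the least precise. It held 65 counts or fewer in any library. The irld libraries held 0.991, 5.00 and 3.53 CPM at 6 h and 1.04, 0.12 and 0.717 CPM at 72 h, and the N2 libraries 1.78, 2.65 and 5.24 CPM at 6 h and 1.26, 0.243 and 0.469 CPM at 72 h. In irld the times overlapped, since the highest library at 72 h was above replicate 1 at 6 h, while in N2 they did not. The log2 difference at 72 h against 6 h was -2.34 ± 0.65 in irld (SE, adjusted p = 0.00466, edgeR) and -2.29 ± 0.65 in N2 (SE, adjusted p = 0.00494, edgeR).

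**Figure D2:**
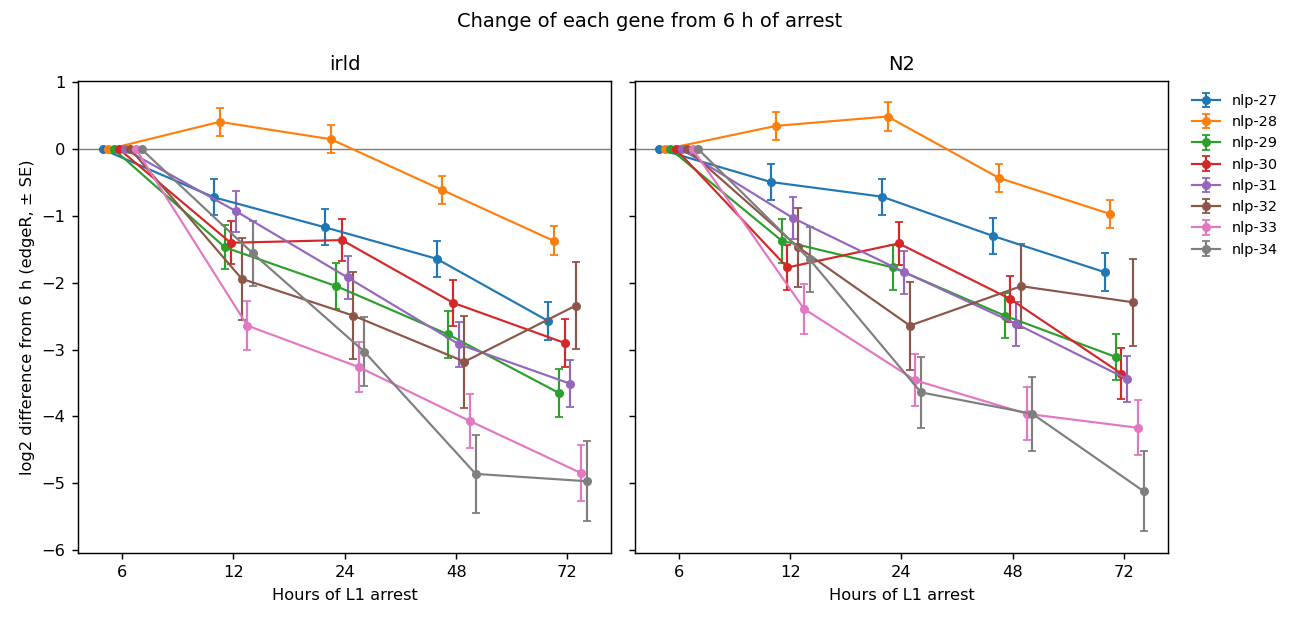
Log2 difference of each gene from its level at 6 h, fitted by edgeR (points, with bars of 1 SE), against hours of L1 arrest in irld (left) and N2 (right). nlp-28 is the highest line in each panel, at 0.41 in irld and 0.35 in N2 at 12 h, and nlp-33 the lowest at 12 h, at -2.64 and -2.39; nlp-34 ends lowest, at -4.97 and -5.12.

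Falls were called from the first interval on. At 12 h against 6 h, 3 of 8 genes were called lower in irld (nlp-29, nlp-30 and nlp-33), where 2.42% of all genes were, and 5 of 8 in N2 (these and nlp-31 and nlp-34), where 3.55% were. With only the groups at 12 h and 6 h fitted, the irld count was 0, with adjusted p of 0.224 for nlp-29 and nlp-30 and 0.129 for nlp-33 (edgeR), and the N2 count 5. The irld count was 5 with DESeq2. With the neighbours summed it was 7, but there the 6 clustered genes share the 1 call of their sum. They include nlp-28, whose own irld difference was 0.41 and not called. With no filter on low counts the N2 count was 3. Under spike-in scaling 0 of 8 were called in each strain, as were 0% of all genes, with differences of nlp-33 of -3.09 in irld and -2.39 in N2. Without irld at 6 h replicate 1, the irld count was 7, and nlp-28 was the exception. The irld count was 1 without replicate 2 at 12 h or without replicate 2 at 6 h. The N2 count was 2 or 3 without any 1 of the 6 N2 libraries at 12 h and 6 h, and 3 without irld replicate 2 at 48 h, which enters through the shared estimate of spread. With all libraries of replicate 1, 2 or 3 left out, the N2 count was 3, 0 and 1. In irld it was then 5, 1 and 1. Averaged over both strains, 7 of 8 were called lower at 12 h, beside 10.4% of all genes. No single left-out library changed that count by over 1.5 times, while it was 3 with all libraries of replicate 2 or of replicate 3 left out, and 1 under spike-in scaling. At 24 h, 7 of 8 were called lower in irld (16.5% of all genes) and 7 of 8 in N2 (18.3%). At 48 h, 8 of 8 were called lower in irld (23.9% of all genes) and 7 of 8 in N2 (25.6%), the exception each time being nlp-28. Without irld at 6 h replicate 1, the irld counts were 7 at 24 h, 7 at 48 h and 8 at 72 h.

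Single steps after 12 h had fewer calls. At 24 h against 12 h, nlp-34 was the gene called lower in N2 (-1.99 ± 0.51, SE, adjusted p = 0.0106, edgeR, 7.25% of all genes), and 0 of 8 were called in irld (3.01% of all genes), where 2 had an unadjusted p under 0.05, as did 21.8% of all genes. That N2 count was 0 without replicate 2 at 12 h or replicate 1 at 24 h, 3 without irld at 6 h replicate 1, and 2 without irld at 24 h replicate 1, irld at 6 h replicate 3, irld at 72 h replicate 2 or irld at 72 h replicate 3. The N2 difference of nlp-34 at this step, -1.99, was not smaller than that at 12 h against 6 h, -1.65. The irld count was 2 without irld at 12 h replicate 1 or irld at 6 h replicate 1, and 1 without irld at 72 h replicate 3. Averaged over strains, nlp-31, nlp-33 and nlp-34 were called lower at 24 h (13.8% of all genes), by -0.90 ± 0.22, -0.84 ± 0.26 and -1.73 ± 0.36 (SE, adjusted p = 0.00423, 0.0179 and 0.000991, edgeR). At 48 h against 24 h, nlp-28, nlp-30 and nlp-31 were called in the same contrast (2.49% of all genes), by -0.84 ± 0.15, -0.88 ± 0.25 and -0.88 ± 0.23 (SE, adjusted p = 0.00137, 0.0336 and 0.0266, edgeR). The count was 1 without N2 at 24 h replicate 3, N2 at 48 h replicate 2, irld at 24 h replicate 2 or irld at 48 h replicate 1. It was 0 with all libraries of replicate 2 left out, 1 with all of replicate 3 left out, and 0 under spike-in scaling. DESeq2 and library size alone each gave 5. For 24 h against 12 h over both strains, the count was 1 with all libraries of replicate 2 left out. At 72 h against 48 h, 0 of 8 were called over both strains by edgeR (0.129% of all genes), 5 had an unadjusted p under 0.05 (8.69% of all genes), and DESeq2 called 2 and limma-voom 0. It was 1 without N2 at 24 h replicate 2, irld at 12 h replicate 1, irld at 6 h replicate 3 or irld at 72 h replicate 3.

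The genes also changed relative to each other within a library, where scaling between libraries plays no part. For each gene the log2 ratio to the mean log2 count of the other 7 was compared between times by an exact two-sided permutation of times within strain, with 400 splits, a smallest possible p of 0.005 and 16 tests adjusted together. This test was chosen after the values were seen. At 12 h against 6 h, nlp-28 gained 1.80 on the others (adjusted p = 0.0133, exact permutation) and nlp-27 gained 0.76 (adjusted p = 0.0133, exact permutation). nlp-31 gained 0.29 (adjusted p = 0.04, exact permutation), and nlp-33 lost ground with a change of -1.47 (adjusted p = 0.0133, exact permutation). At 72 h against 6 h the gains were 2.32 for nlp-28 and 1.17 for nlp-27, and the losses -1.68 for nlp-33 and -2.23 for nlp-34 (adjusted p = 0.0133, 0.0133, 0.0133 and 0.0229, exact permutation). Each change in nlp-28 and nlp-27 was a gain in irld and in N2 alike. Without irld at 6 h replicate 1 the gain of nlp-28 was 2.10 at 12 h and 2.62 at 72 h.

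As a share of the summed CPM, nlp-28 held 30.8 ± 8.64% at 72 h, against 9.10 ± 6.24% at 6 h, in irld, and 25.5 ± 3.23% at 72 h, against 6.70 ± 1.32% at 6 h, in N2 (SD, n = 3 each). The share of nlp-33 was 6.01 ± 3.22% at 72 h, against 19.3 ± 3.70% at 6 h, in irld, and 8.67 ± 1.32% at 72 h, against 20.7 ± 2.44% at 6 h, in N2. The order of levels per length of exon changed with these shares. At 6 h in irld it ran nlp-29 (786 CPM per kb), nlp-33 (397), nlp-34 (275), nlp-27 (255), nlp-28 (159), nlp-31 (141), nlp-30 (19.8) and nlp-32 (8.19). In N2 at 6 h it ran nlp-29 (723 CPM per kb), nlp-33 (401), nlp-34 (327), nlp-27 (198), nlp-31 (150), nlp-28 (131), nlp-30 (19.7) and nlp-32 (8.32). The ranges of neighbours from nlp-29 to nlp-31 overlapped in irld, and in N2 those of nlp-33 with nlp-34, nlp-27 with nlp-31 and nlp-31 with nlp-28 did. At 72 h nlp-29, nlp-28 and nlp-27 led in both strains, at 62.7, 61.6 and 43.2 CPM per kb in irld and 83.6, 66.7 and 55.4 CPM per kb in N2. Their ranges were apart in N2, and in irld nlp-29 overlapped nlp-28 while nlp-28 lay above nlp-27.

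**Figure D3:**
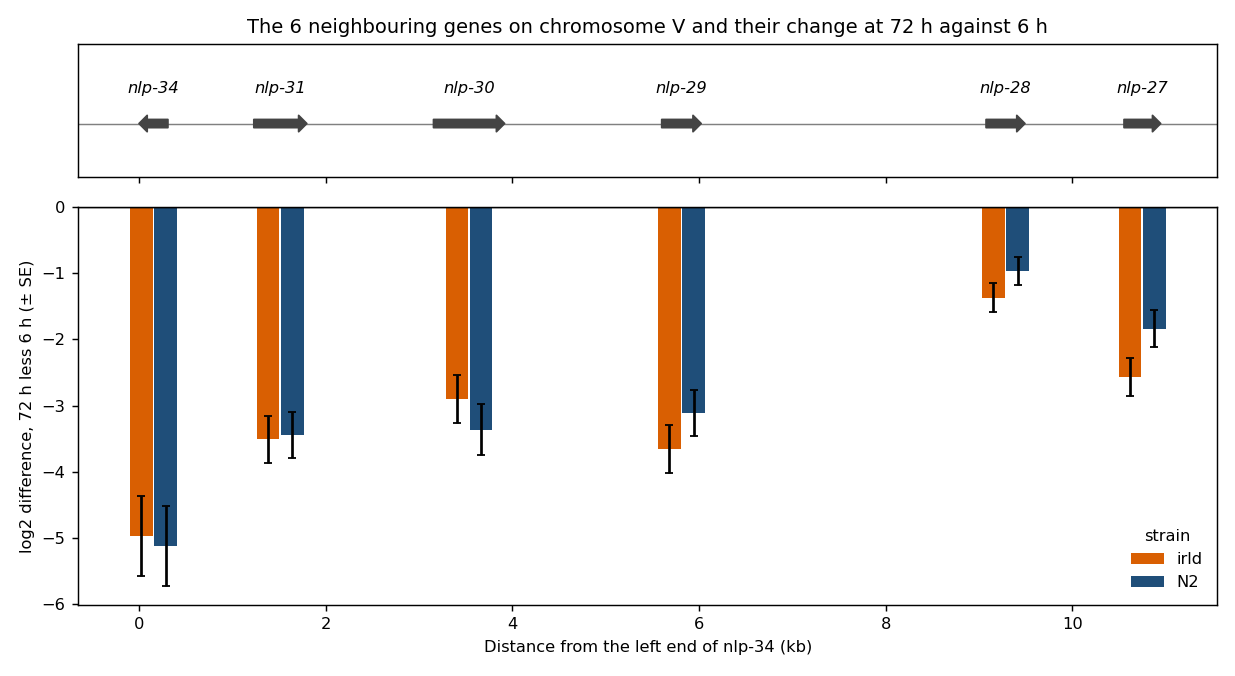
The 6 clustered genes drawn to scale as arrows in the direction of transcription (top), and the log2 difference of each at 72 h less 6 h with its SE (bottom; orange bars irld, blue bars N2), against distance in kb from the left end of nlp-34. nlp-34 at the left end has the longest bars, -4.97 in irld and -5.12 in N2, and nlp-28, -1.37 and -0.97, has shorter bars than its neighbours nlp-29 and nlp-27.

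Along the cluster, nlp-28 and nlp-27, at the right end, had the smallest falls, and nlp-28 lies 3052 bp from nlp-29, whose fall was larger. With the 6 neighbours summed into 1 feature, the cluster held 66.2 ± 21.7 CPM at 72 h, against 562 ± 200 CPM at 6 h, in irld, and 79.6 ± 4.70 CPM at 72 h, against 530 ± 116 CPM at 6 h, in N2 (SD, n = 3 each). The summed feature is not affected by reads shared between neighbours. Its log2 difference at 72 h was -3.09 ± 0.24 in irld (SE, adjusted p = 1.79e-10, edgeR) and -2.74 ± 0.23 in N2 (SE, adjusted p = 8.45e-10, edgeR). At 12 h it was -0.99 ± 0.22 in irld (SE, adjusted p = 0.011, edgeR) and -1 ± 0.22 in N2 (SE, adjusted p = 0.00741, edgeR).

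Across the 30 libraries, Pearson's r of log2 CPM between pairs of the 8 genes ranged from 0.22 to 0.97, with a median of 0.82 over 28 pairs. Pairs with nlp-28 had r of 0.22 to 0.70, and pairs without it 0.69 to 0.97. The libraries share the course of time, and neighbours may share reads. After each group's mean was subtracted, the range was -0.42 to 0.83. nlp-29 still had r of 0.83 with nlp-33, 0.81 with nlp-31 and 0.74 with nlp-27, and nlp-28 had -0.42 with nlp-34 and 0.54 with nlp-30. These values describe the libraries and carry no test.

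**Figure D4:**
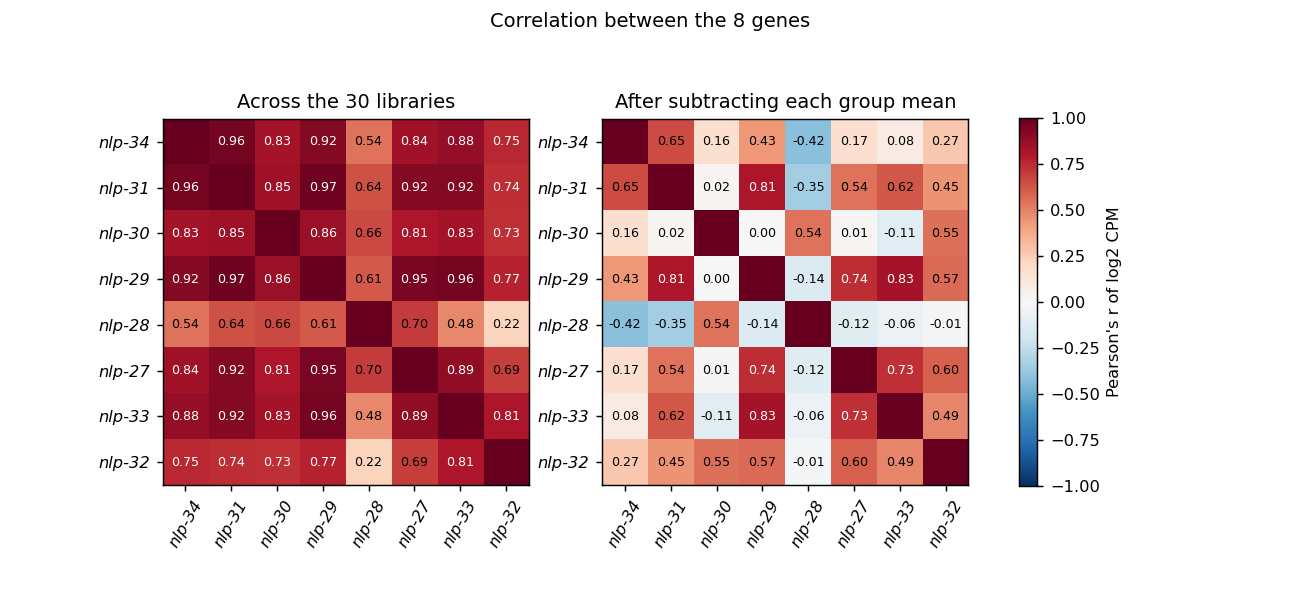
Pearson's r of log2 CPM between the 8 genes across the 30 libraries (left) and after the mean of each of the 10 groups was subtracted (right); red is positive and blue negative, and the cluster is in chromosome order with nlp-33 and nlp-32 last. The nlp-28 row is the palest on the left, at 0.22 to 0.70, and on the right 6 of its 7 values are below 0, down to -0.42.

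The strains did not differ detectably in any of the 8 genes. edgeR called 0 of 8 at each time, for the mean over times, for the change to 72 h and for a difference that changes with time, in a table where 0% of all genes were called in each. None of the 8 had an unadjusted p under 0.05 in these contrasts, which 1.1%, 1.48%, 2.22%, 2.75% and 2.88% of all genes did at 6, 12, 24, 48 and 72 h. For the mean over times it was 5.4% of all genes, for the change to 72 h 1.95% and for a difference that changes with time 0.767%. DESeq2 and limma-voom also called 0 of the 8. As a mean over the 5 times, the log2 difference (irld less N2) was -0.30 ± 0.31 for nlp-32, -0.26 ± 0.24 for nlp-34, -0.18 ± 0.17 for nlp-33, -0.16 ± 0.15 for nlp-31, -0.12 ± 0.15 for nlp-29, 0.02 ± 0.12 for nlp-27, 0.11 ± 0.09 for nlp-28 and 0.17 ± 0.16 for nlp-30 (SE, adjusted p = 0.987 to 0.999, edgeR). All 8 of these 95% intervals lay within a 2-fold difference, from -0.95 to 0.50 on the log2 scale. At single times the intervals of 3 to 6 of the 8 did, and for the difference in the change to 72 h 0 of 8 did.

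**Figure D5:**
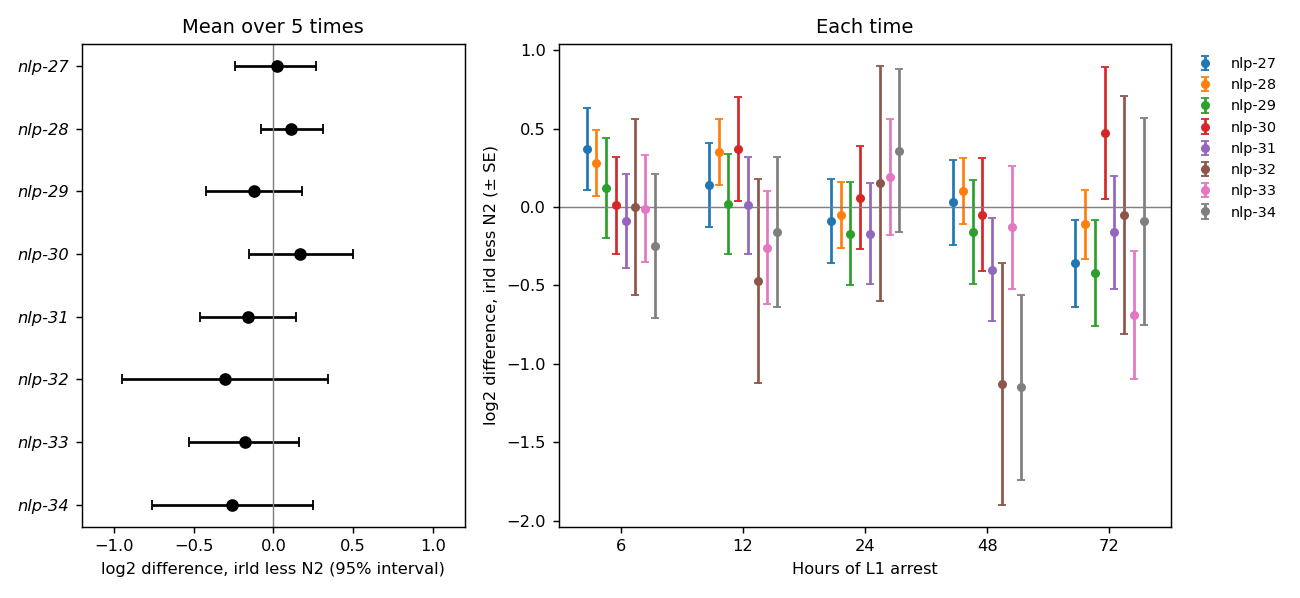
Log2 difference of irld less N2 for each gene, as the mean over 5 times with its 95% interval (left) and at each time with its SE (right). All 8 intervals on the left cross 0 and the points lie between -0.30 and 0.17; on the right the points lie between -1.15, for nlp-34 at 48 h, and 0.47, for nlp-30 at 72 h.

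At every time the irld and N2 libraries of each of the 8 genes overlapped. Of all genes, those with every irld library below every N2 library made up 2.02%, 2.87%, 1.74%, 2.78% and 3.41% at 6, 12, 24, 48 and 72 h, and those with every irld library above 2.68%, 3.44%, 2.72%, 3.71% and 4.18%. The lowest unadjusted p of the single times was 0.0637, for nlp-34 at 48 h, where the irld libraries held 1.46, 2.41 and 3.73 CPM and the N2 libraries 7.62, 3.46 and 5.66 CPM. The log2 difference there was -1.15 ± 0.59 (SE, adjusted p = 1, edgeR). Without irld at 6 h replicate 1, nlp-27 had an irld-less-N2 difference of 0.65 at 6 h (unadjusted p = 0.0143, adjusted p = 1, edgeR), against 0.37 ± 0.26 with it. In the authors' deposited table of their strain test over 14928 genes, the p values of the 8 genes ran from 0.418 for nlp-28 to 0.786 for nlp-31, each with an FDR of 1.

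Related peptide genes were read from lists chosen from the known biology of this response. The caenacins, glycine-rich peptides of the same wider group whose cnc-2 cluster answers to the TGF-beta ligand DBL-1, had 8 of 11 members tested, and cnc-1, cnc-5 and cnc-9 were too low. All 8 tested caenacins were called lower at 72 h than at 6 h in irld, beside 26% of all genes, and in N2, beside 27.9%. Their median log2 difference was -3.10 in irld and -3.75 in N2. The filter on low counts asks for enough counts in only as many libraries as 1 group holds. A low gene can therefore be tested through its level at 6 h alone, and could then be called lower but hardly higher. This limits the caenacin count, and applies also to low genes such as nlp-32, nlp-25 and the furrow collagens. cnc-4 averaged 2.28 CPM at 72 h, against 87.6 CPM at 6 h, in irld, and 3.22 CPM at 72 h, against 111 CPM at 6 h, in N2, with a difference of -5.24 ± 0.82 and -5.12 ± 0.80 (SE, adjusted p = 1.83e-05 and 1.52e-05, edgeR). cnc-2, cnc-6, cnc-8, cnc-3, cnc-10, cnc-7 and cnc-11 changed by -6.07, -6.03, -3.61, -2.24, -2.59, -1.81 and -1.77 in irld and by -5.30, -5.38, -3.86, -3.64, -2.74, -2.06 and -1.49 in N2. Some of these ended near 0. At 72 h cnc-2 averaged 0.0798 CPM in irld and 0.162 CPM in N2, and cnc-6 0.209 and 0.321 CPM. The SE of cnc-2 was 0.99 in irld and 0.89 in N2. In N2 cnc-3 averaged 0.195 CPM at 72 h, while cnc-8, cnc-10 and cnc-11 averaged at least 2.58 CPM in each strain. At 12 h only cnc-8 and cnc-10 of the list were called lower, in each strain, beside 2.42% of all genes in irld and 3.55% in N2. Among nlp-24, nlp-25 and nlp-26, 1 of 3 was called lower at 72 h in irld and 3 of 3 in N2. nlp-24 averaged 6.30 CPM at 72 h, against 116 CPM at 6 h, in irld, and 9.45 CPM at 72 h, against 132 CPM at 6 h, in N2. nlp-25 differed by -1.90 ± 1.13 in irld (SE, adjusted p = 0.173, edgeR) and changed by -4.09 ± 1.37 in N2 (SE, adjusted p = 0.0148, edgeR), and nlp-26 differed by -1.04 ± 0.51 in irld (SE, adjusted p = 0.0958, edgeR) and changed by -1.47 ± 0.54 in N2 (SE, adjusted p = 0.0247, edgeR). nlp-25 was near 0 throughout, at a mean of 0.0391 CPM at 72 h, against 0.883 CPM at 6 h, in N2.

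The upstream genes moved in both directions. Of 9 receptor and G-protein genes, 2 were called higher and 3 lower at 72 h against 6 h in each strain, where 20.6% and 26% of all genes were called higher and lower in irld and 23.1% and 27.9% in N2. gpa-12, the G-protein alpha subunit of the response, differed by -1.90 ± 0.20 in irld and -2.01 ± 0.20 in N2 (SE, adjusted p = 2.42e-08 and 8.05e-09, edgeR), and rack-1, a scaffold and ribosomal protein, by 1.12 ± 0.15 and 1.24 ± 0.15 (SE, adjusted p = 1.14e-06 and 2.21e-07, edgeR). gpc-2, a G-protein gamma subunit, differed by -0.31 ± 0.15 in irld (SE, adjusted p = 0.084, edgeR) and by -0.73 ± 0.15 in N2 (SE, adjusted p = 0.000211, edgeR). The receptor gene dcar-1 was called lower in irld alone, by -0.37 ± 0.13 (SE, adjusted p = 0.0249, edgeR), and the strains' difference in this change was not called. It averaged 57.2 CPM at 72 h, against 74.2 CPM at 6 h, in irld, and 64.5 CPM at 72 h, against 64 CPM at 6 h, in N2.

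Of 6 genes of the p38 cascade, 2 were called higher and 2 lower at 72 h in each strain. Of all genes, 20.6% were called higher and 26% lower in irld, and 23.1% and 27.9% in N2. The kinase genes sek-1 and nsy-1 rose, by 1.33 ± 0.17 and 1.07 ± 0.21 in irld and 1.37 ± 0.17 and 1.21 ± 0.22 in N2 (SE, adjusted p at most 0.000224, edgeR). The adaptor gene tir-1 fell, with a difference of -2.12 ± 0.44 in irld (SE, adjusted p = 0.000371, edgeR) and -2.53 ± 0.44 in N2 (SE, adjusted p = 5.09e-05, edgeR), and the phosphatase gene vhp-1 was the other called lower. The p38 gene pmk-1 itself had a difference of 0.27 ± 0.12 in irld (SE, adjusted p = 0.074, edgeR) and 0.06 ± 0.12 in N2 (SE, adjusted p = 0.71, edgeR). Of the transporter and transcription factor genes, 1 of 4 was called lower in each strain. That gene was cebp-1, with -2.34 ± 0.56 in irld and -2.32 ± 0.56 in N2 (SE, adjusted p = 0.00165 and 0.00154, edgeR). The STAT-like gene sta-2 differed by 0.13 ± 0.17 in irld and -0.09 ± 0.17 in N2, and the epidermal GATA factor gene elt-3 by 0.34 ± 0.18 and 0.22 ± 0.18, none of them called.

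In the DBL-1 pathway, 3 of 9 genes were called higher and 4 lower at 72 h in irld, and 3 higher and 2 lower in N2. The shares of all genes, for this list and the 2 that follow, were 20.6% higher and 26% lower in irld. In N2 they were 23.1% and 27.9%. The ligand gene dbl-1 rose by 0.47 ± 0.17 in irld (SE, adjusted p = 0.0215, edgeR) and 0.66 ± 0.17 in N2 (SE, adjusted p = 0.00171, edgeR). The Smad gene sma-2 rose by 0.87 ± 0.23 and 0.84 ± 0.23, and the zinc-finger gene sma-9 by 1.17 ± 0.24 and 1.27 ± 0.24. In both strains sma-6 and lon-2 were called lower. sma-6 differed by -0.61 ± 0.20 in irld and -0.65 ± 0.20 in N2, and lon-2 by -0.56 ± 0.19 and -0.49 ± 0.19 (SE). In irld alone sma-3 and sma-4 were also called lower, by -1.06 ± 0.20 and -0.50 ± 0.15 (SE). Of 8 osmotic response genes, 1 was called higher and 4 lower in irld, and 1 higher and 5 lower in N2. The glycerol-3-phosphate dehydrogenase gene gpdh-2 changed by -1.69 ± 0.19 in irld and -1.90 ± 0.20 in N2, hmit-1.1 by -1.91 ± 0.48 and -2.29 ± 0.50, and the patched-related gene ptr-23 by -1.13 ± 0.20 and -1.26 ± 0.20. Of the furrow collagen genes, 5 of 6 were tested and 4 of these were called lower in each strain. dpy-10, dpy-2, dpy-7 and dpy-3 changed by -3.75, -3.74, -2.32 and -1.99 in irld and by -6.32, -4.70, -4.19 and -3.77 in N2, while dpy-8, with group means of at most 1.07 CPM at 6 h and 72 h, had differences of -0.46 ± 0.84 in irld and 0.19 ± 0.85 in N2 (SE).

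Most markers of the epidermis were called lower late in arrest. Of 13 listed, 12 were matched and tested. At 72 h against 6 h, 7 were called lower in irld, beside 26% of all genes, and 8 in N2, beside 27.9%. In each strain 0 were called higher, beside 20.6% of all genes in irld and 23.1% in N2. The summed level of the 12 was 1880 to 2070 CPM at 72 h, against 3240 to 4140 CPM at 6 h, in irld. In N2 it was 1650 to 2480 CPM at 72 h, against 3100 to 4610 CPM at 6 h. Of these sums vab-10 held a mean of 1610 CPM at 6 h and 779 CPM at 72 h in irld. In N2 it held 1640 CPM at 6 h and 812 CPM at 72 h. mup-4 changed by -2.58 ± 0.24 in irld and -2.91 ± 0.25 in N2, dlg-1 by -1.64 ± 0.21 and -1.95 ± 0.21, and vha-5 by -0.80 ± 0.17 and -1.14 ± 0.17 (SE). The epidermal factor gene lin-26 had differences of 0.13 ± 0.14 in irld and -0.02 ± 0.14 in N2 (SE, adjusted p = 0.477 and 0.927, edgeR), and no tested marker had a mean of 0 at 6 h or 72 h. The list shares dpy-7 and elt-3 with the lists above. At 12 h against 6 h, 0 of the 12 were called lower in each strain alone, and 2 of 12 averaged over both strains, with a median log2 difference of -0.25, beside -0.01 for all genes. The part of the markers in the fall of the 8 genes was not tested, and in RNA of whole larvae fewer cells of a type and less RNA per cell cannot be told apart.

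At 72 h against 6 h, markers of neurons, intestine, body wall muscle and glia were called in both directions. Those called for pharynx, coelomocytes and germline precursors were all lower. Of all genes, 20.6% were called higher and 26% lower in irld, and 23.1% and 27.9% in N2. In irld, 2 markers were called higher and 3 lower of 8 for neurons, 2 and 3 of 7 for intestine, 1 and 3 of 7 for body wall muscle, 0 and 5 of 6 for pharynx, 1 and 2 of 3 for glia, 0 and 3 of 3 for coelomocytes, and 0 and 1 of 5 for germline precursors. The N2 counts were the same except for pharynx, with 0 higher and 2 lower of 6. Summed over markers, neurons held 2560 to 2810 CPM at 72 h, against 1380 to 1500 CPM at 6 h, in irld, and 2780 to 3240 CPM at 72 h, against 1450 to 1520 CPM at 6 h, in N2. Of these sums egl-21, a peptide-processing enzyme gene, held a mean of 1760 CPM at 72 h, against 508 CPM at 6 h, in irld, and 2000 CPM at 72 h, against 498 CPM at 6 h, in N2. The pharynx markers held 672 to 1070 CPM at 72 h, against 2500 to 4150 CPM at 6 h, in irld, and 415 to 2230 CPM at 72 h, against 2440 to 3750 CPM at 6 h, in N2.

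Likeness of course was measured as Pearson's r of log2 CPM over the 30 libraries, against 7289 named genes with a mean of at least 2 CPM. The genes most like the mean of the 8 were ttr-45 (r = 0.964), col-166 (0.962), col-180 (0.956), ttr-18 (0.955), ttr-15 (0.955), zmp-3 (0.953), grd-10 (0.952) and ttr-2 (0.952). The col genes encode cuticle collagens and the ttr genes transthyretin-related proteins. These genes were chosen for following a mean that fell, so their own fall follows from the choice and is no separate result. All 8 of them were called lower at 72 h than at 6 h in both strains. For col-166 the difference was -6.37 ± 0.33 in irld and -5.87 ± 0.32 in N2 (SE). For single genes, nlp-33 was most like nlp-24 (r = 0.975), nlp-34 most like oac-14 (0.98), with cnc-4 also among its nearest (0.969), and nlp-29 most like ttr-45 (0.965). nlp-31 was also most like ttr-45 (0.973), nlp-27 most like col-103 (0.927), nlp-30 most like the glutathione transferase gene gst-13 (0.916), and nlp-32 most like cpg-7 (0.864). nlp-28 was most like acs-12 (0.905), an acyl-CoA synthetase gene with 12 h differences near 0 in N2 (0.07), followed by dct-6 (0.903) and col-42 (0.90).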

How the data were processed

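Polyadenylated RNA of whole starved larvae was sequenced as 50 bp pairs in 30 libraries. Per the authors' text sheet and the submitters' processing notes, reads were aligned with bowtie 1.2.2, which does not split reads over introns, to WS273 with ERCC sequences, dropping reads with over 2 alignments, and counted with HTSeq 0.11.2; its strand setting is not given in the sources used here. The deposited files hold raw counts per gene, with the 30 sample files identical to the table of the whole series. CPM columns deposited by the authors were left aside. The authors' deposited edgeR 3.24.4 table holds log2 fold changes, a score (F) and p-values with FDR.

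Here, counts were tested with edgeR 4.0.16 (TMM, filterByExpr, robust quasi-likelihood F-tests, 10 groups in one fit, Benjamini-Hochberg over 15508 genes); SE is the absolute log2 difference over the square root of F. Depth was 7563687 to 19815884 counts, with 35.33 to 40.7% of reads not aligned. Coordinates are from Ensembl 115 (WBcel235). No replicate was a copy of another, since the chi-square between a pair came to 6.86 to 95.9 per gene. Steps were checked on simulated counts. Alternatives were other scalings, filters, DESeq2 1.42.0, limma-voom 3.58.1, a replicate block, the compared groups alone, summed neighbours and left-out libraries. The named genes are the 8, up to 3 of each list with the smallest p for any change in N2, and the most alike. All tested caenacins, nlp-24 to nlp-26 and furrow collagens are also named. The genes dcar-1, pmk-1, vhp-1, sma-3, sma-4, sma-6, lon-2, lin-26 and vab-10 were added after their values were seen. The genes and lists were chosen with earlier results of these data known, and contrasts averaged over strains were added after seeing the data. Spike-in was added by total RNA, so it does not measure RNA per larva. Its counts also differed widely between replicates of a group. No sequence was used.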

Additional observations from a re-analysis of the deposited data

How the results depend on the processing

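At 72 h against 6 h, all 8 genes kept their direction under each scaling, filter, tool and left-out library tried. Median changes of all genes at 72 h were -0.57 in N2 and -1.58 in irld under spike-in scaling, and -0.63 and -0.59 by library size, beside -0.11 and -0.13 under TMM; depth limits nlp-32 most. Counts of members called are given as the alternative beside the main count.

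Under spike-in scaling the counts were 0 of the main 3 for irld and 0 of 5 for N2 at 12 h against 6 h, where 0 of all 15508 genes were called, 5 of 8 for N2 at 72 h, and, over both strains, 1 of 7 at 12 h and 0 of 3 at 48 h against 24 h. It also reversed the strain mean of nlp-29 to 0.03 and of nlp-33 to 0.01, and nlp-28 at 12 h to -0.66 in irld and -0.18 over both strains, and to -1.08 at 24 h; limma-voom gave nlp-27 a strain mean of -0.00051. With no filter, N2 had 3 of 5 at 12 h and 1 of 0 at 48 h against 24 h, and both strains 1 of 0 at 72 h against 48 h. Library size alone gave N2 2 of 1 at 24 h against 12 h, 1 of 0 at 48 h against 24 h in each strain, and 5 of 3 and 1 of 0 over both strains at 48 h against 24 h and 72 h against 48 h. DESeq2 gave irld 5 of 3 at 12 h, 2 of 0 at 24 h against 12 h and 2 of 0 at 48 h against 24 h, N2 2 of 1 and 1 of 0 at those steps, and both strains 5 of 3 and 2 of 0 at the last steps; limma-voom gave 1 of 0 in irld and 2 of 1 in N2 at 24 h against 12 h. With only the groups compared, irld had 0 of 3 at 12 h, N2 2 of 1 at 24 h against 12 h, and both strains 1 of 0 at 72 h against 48 h; this alternative has no other form for the strain mean and the differences of course, which use all groups. Summed neighbours, each counted with the call of the sum, gave irld 7 of 3 at 12 h, N2 0 of 1 at 24 h against 12 h, and both strains 7 of 3, 6 of 3 and 6 of 0 at the last 3 steps. The causes were not tested.

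The labels do not say that a replicate number marks a shared batch, and it was not taken to pair the samples, since r over 0.1 was found for 78 of 135 pairs of libraries with the same number and not for all (median 0.124, lowest -0.346). As a hint from the data and not the design, the median for different numbers was -0.0752. The best match had the same number in 74 of 135 cases, so not every library matched its own number best. Replicate 1 was also the highest on the first principal component in every group. The rule on r cannot exclude a shared batch, and the main p values do not take one into account. With the replicate block, irld had 6 of 3 at 12 h, 2 of 0 at 24 h against 12 h and 1 of 0 at 48 h against 24 h, N2 3 of 1 and 1 of 0 at those steps, and both strains 1 of 0 at 72 h against 48 h. The block gave nlp-34 in irld at 12 h an adjusted p of 0.0273, beside 0.0684, and nlp-28 over both strains 0.0428 at 12 h and 0.0477 at 24 h, beside 0.0701 and 0.0775 (edgeR).

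Leaving out replicates, the count called in either direction ranged in irld from 1 to 7 at 12 h and 5 to 7 at 24 h. It was 7 to 8 at 48 h, at 72 h and for any time, a test without direction. In N2 the ranges, in the same order, were 0 to 5, 5 to 7, 6 to 7, 7 to 8 and 7 to 8. Step counts ranged from 0 to 2 and 0 to 1 in irld and 0 to 3 and 0 to 1 in N2 for 24 h against 12 h and 48 h against 24 h, and were 0 to 0 for 72 h against 48 h. Over both strains the counts ranged from 3 to 8, 7 to 8, 7 to 8 and 8 to 8 against 6 h. For the steps they ranged from 1 to 3, 0 to 4 and 0 to 1. Where nlp-28 was called over both strains at 12 h or 24 h it was higher than at 6 h, so those counts are not all falls. Strain comparisons stayed at 0 to 0. Strain means that changed sign ranged from -0.09 to 0.08 for nlp-27, -0.13 to 0.32 for nlp-30 and -0.54 to 0.13 for nlp-34.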
